A study of Rattus norvegicus with 3 samples.

Results

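Translation factors are the proteins that start, drive and end the synthesis of protein on the ribosome. Of those identified in Rat1 fibroblasts, 6 were examined by their Swiss-Prot entry name, with any species suffix: the elongation factors EF2 and EF1B, the initiation factors IF38, IF2G and SUI1, and the hypusine-carrying factor IF5A. These names gave 11 of the 1227 entries in the 3 tables of the study, with 6 of 620 entries in the soluble fraction, 2 of 400 in the chromatin-enriched fraction and 3 of 207 in the crude mitochondrial fraction. All 11 entries had a deposited protein ratio, so none was lost to missing peaks.

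In initiation, eIF2 brings the initiator tRNA to the small ribosomal subunit, eIF3 holds the subunit ready for mRNA, and eIF1 guards the choice of the start codon. In elongation, eEF1A delivers each aminoacyl-tRNA as a GTP complex, the eEF1B complex reloads eEF1A with GTP, and eEF2 uses GTP to move the ribosome along the mRNA by a codon. eIF5A carries hypusine, an amino acid made from spermidine, and helps ribosomes past stretches where peptide bonds form slowly. Genes of the translation machinery are among the well-known targets of Myc, a transcription factor that drives growth and sensitises serum-starved fibroblasts to apoptosis.

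The study compared Rat1_Myc with Rat1_vector cells, which are rat fibroblasts carrying Myc or the vector, and both were kept without serum for 12 h. Neither the promoter of the construct nor the number of clones is given in the sources used here. Every value is a ratio of starved over starved cells, and no cells with serum were measured in these tables. From each line a soluble, a chromatin-enriched (2.5 mg of protein each) and a crude mitochondrial fraction (250 ug) were made. Cysteines were tagged with an isotope-coded affinity tag (ICAT), heavy for Myc cells and light for vector cells, before both were mixed, digested with trypsin and measured by mass spectrometry. Every fraction was a single mixture and the labels give no tag swap, so there was no replicate, no test across samples was possible, and cell line and reagent cannot be told apart. All errors below are the deposited SD of a ratio, which covers the measurement of the peptides of 1 mixture only.

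A ratio above 1 means more of the tagged peptide from Myc cells, and it says nothing of how abundant a factor is. To be counted as higher, an entry needed a ratio of 1.5 or more, and to be counted as lower one of 0.667 or less. In both cases its log ratio also had to exceed 2 errors, an error being the deposited SD divided by the ratio. The verbs rose and fell are used for such entries only. The soluble, chromatin and mitochondrial tables hold 3608, 2386 and 789 peptide lines, and their median protein ratios were 1.34, 1.24 and 1.15. Because those medians lie above 1, calls were made again on ratios divided by the median of the fraction. MYC itself had 0 lines in the tables used here, so the labels could not be checked on it. Of fraction markers, histone H3 had 28 lines in the chromatin and 0 in the other fractions. The mitochondrial channel VDAC had 126 lines in the chromatin fraction and 5 in the mitochondrial one. Hsp60, a mitochondrial chaperone, had 92 soluble, 18 chromatin and 14 mitochondrial lines. Fibronectin, collagen I and vimentin, which fibroblasts make, had 92 lines in the chromatin, 3 in the mitochondrial and 0 in the soluble fraction.

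In the soluble fraction EF2, IF5A and IF2G rose, IF38 fell, and neither EF1B entry passed the rule. That is 4 of 6 entries, 3 higher and 1 lower. Of all 542 quantified soluble entries 38.7% passed in either direction, 30.6% higher and 8.12% lower. Relative to the fraction median 3 of 6 passed, 2 higher and 1 lower, against 29.9% of all entries. The median ratio of the 6 entries was 1.53 and that of all soluble entries 1.34. Of the soluble entries with at least 2 peptides, EF2 and IF5A, 2 of 2 passed, against 35.7% of 168 entries. The chromatin fraction had 1 of 2 entries passing, IF2G, which fell, against 27.7% of 364 entries in either direction and 7.42% lower. Relative to the fraction median IF2G passed again, against 22.5% of all entries, and among chromatin entries with at least 2 peptides EF2 did not pass, where 24% did. In the mitochondrial fraction 2 of 3 entries passed, SUI1 and EF2, both higher, against 18.4% of 201 entries in either direction and 10.9% higher. Relative to the fraction median SUI1 alone passed there, again against 18.4%. With so few entries the shares cannot be read beyond these counts.

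**Figure D1:**
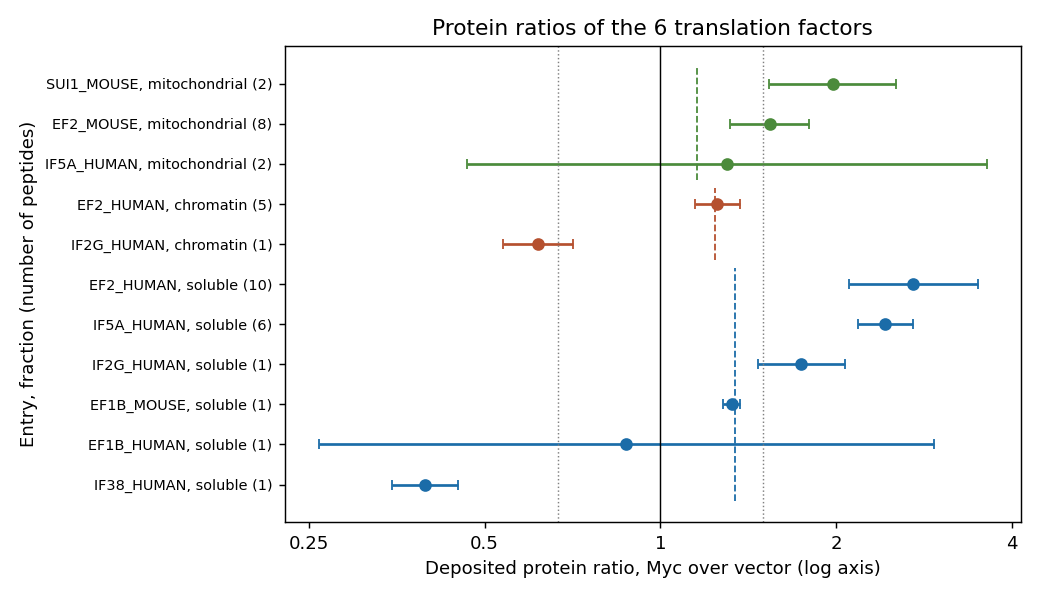
Deposited protein ratio, Myc over vector (log axis), of the 11 translation factor entries, with bars from the ratio divided to the ratio multiplied by the exponential of SD over ratio, the number of peptides in brackets, dashed lines at the fraction medians and dotted lines at the 1.5-fold bounds. The soluble ratios run from 0.395 (IF38_HUMAN) to 2.71 (EF2_HUMAN), and the bars of EF1B_HUMAN and of mitochondrial IF5A_HUMAN span both bounds.

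The plot of protein ratios places the soluble entries in the order EF2, IF5A, IF2G, the mouse EF1B entry, the human EF1B entry and IF38. A pair of ratios was counted as different when it lay 1.5-fold or more apart and the gap was over 2 combined errors. No neighbours in that order differed, while 6 of the 15 pairs of soluble entries did. EF2 and IF5A each stood above the mouse EF1B entry, by 2.04-fold (2.79 combined errors) and 1.83-fold (5.35 combined errors). IF38 stood below EF2, IF5A, IF2G and the mouse EF1B entry, by 6.86-fold, 6.14-fold, 4.41-fold and 3.35-fold. The chromatin pair, EF2 over IF2G, differed by 2.03-fold (4.27 combined errors). In the mitochondrial fraction 0 of 3 pairs differed by this rule. How often pairs of all entries of a fraction differ by it was not computed, so these counts cannot be read as particular to the factors.

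**Figure D2:**
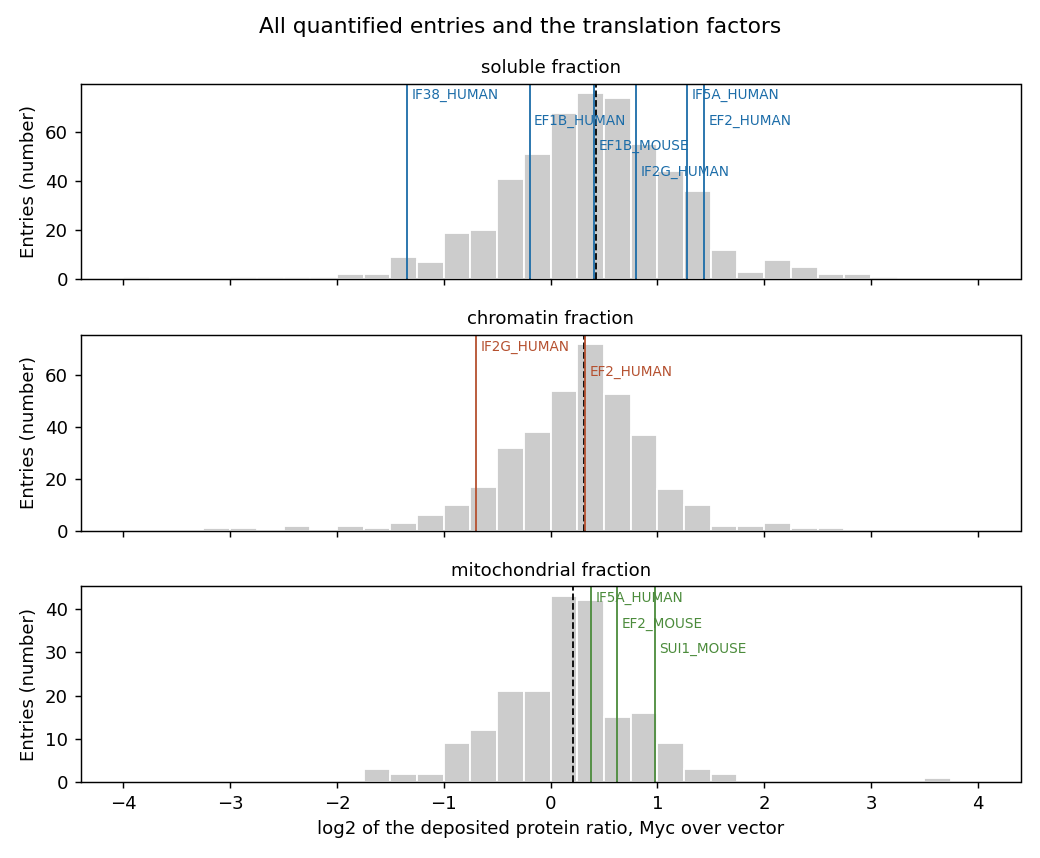
Number of quantified entries by log2 of the protein ratio, Myc over vector, in each fraction (bins of 0.25), with coloured lines at the translation factors and dashed lines at the fraction medians. In the soluble fraction EF2_HUMAN and IF5A_HUMAN lie in the upper flank, IF38_HUMAN in the lower one, and EF1B_MOUSE beside the median.

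EF2, the GTPase of translocation (rat gene Eef2), was the best covered of the 6 factors. It had 83 soluble peptide lines, the second highest number of any quantified entry there, 26 chromatin lines and 19 mitochondrial lines. Its protein ratio was 2.71 ± 0.689 (SD, 10 peptides) in the soluble fraction and 1.54 ± 0.238 (8 peptides) in the mitochondrial fraction. In the chromatin fraction the ratio was 25% above 1, with an SD of 11.1 percentage points (5 peptides), or 0.32 on the log2 scale. EF2 thus rose in the soluble and mitochondrial fractions and did not pass in the chromatin fraction. Among soluble entries it ranked 41 of 542 from the top, and it kept its call relative to the fraction median, at 2.02 times that median. The chromatin ratio was 1.01 times its fraction median. The mitochondrial ratio was 1.33 times its fraction median, below the 1.5-fold bound. The median of the mitochondrial measurements, 1.33, and their error-weighted mean, 1.44, also lay below that bound, so each of these settings ends the mitochondrial call.

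An ICAT ratio comes from peptides that hold a cysteine, so the spread of EF2 can be followed over its cysteine sites, numbered here from 1 by falling number of lines. Lines of the same peak pair were merged to 1 measurement, and lines that carry a question mark in the tables were set apart. The 51 soluble measurements ran from 0.59 to 8.51 with a median of 1.82, and 47 of them were above 1. The 13 chromatin measurements ran from 0.83 to 1.88 (median 1.23), with 10 above 1. The 13 mitochondrial measurements ran from 0.699 to 1.98 (median 1.33), with 8 above 1. Above the median of their own fraction were 37 of the 51 soluble, 5 of the 13 chromatin and 7 of the 13 mitochondrial measurements. The fractions overlap, but the soluble fraction alone reaches beyond a ratio of 2.

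The soluble sites differed in median. Site 3, in a peptide of 14 residues, had the highest median, with measurements of 2.58, 3.46, 3.64, 3.98 and 4.35. None of these 5 measurements lay as low as any of the 5 of site 4, which were 1.16, 1.39, 1.48, 1.76 and 1.82. The value of 3.98 had an SD of 2.94. How often sites of other entries do not overlap was not computed, so this gap cannot be read as particular to EF2. Site 5 lay on both sides of 1, at 0.59, 0.75, 1.46 and 1.54, and site 6 gave 1.00 in 1 measurement. The best covered sites were the widest. Site 1 had 21 measurements from 0.636 to 8.07 (median 1.99), and site 2 had 15 from 0.614 to 8.51 (median 1.85).

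Site 1 was read in peptides of 2 lengths. The soluble 12-residue form had 14 measurements with a median of 2.71 (0.636 to 8.07), and the 13-residue form had 7 with a median of 1.33 (1.10 to 1.995). At site 2 the forms of 18 and 20 residues were closer, with medians of 1.87 over 5 and 1.82 over 10 measurements. Measurements of a site share 1 mixture and often 1 peptide, and are not replicates of the cells.

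In the chromatin fraction site 1 gave 0.83, 0.98 and 1.09, around 1. Site 2 gave 7 measurements from 0.984 to 1.49 (median 1.24), site 3 gave 1.22 and 1.40, and site 6 gave 1.88. Site 6 was thus the highest site in the chromatin fraction and the lowest in the soluble one, each time on 1 measurement. A further 2 chromatin measurements of site 1, both with a question mark, were 0.116 and 0.204, and with them the chromatin median was 1.22. In the mitochondrial fraction site 1 had a median of 0.951 over 5 measurements, site 2 of 1.39 over 4 and site 3 of 1.66 over 3, and site 8 gave 0.76. Site 3 was above site 1 in median in all 3 fractions.

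**Figure D3:**
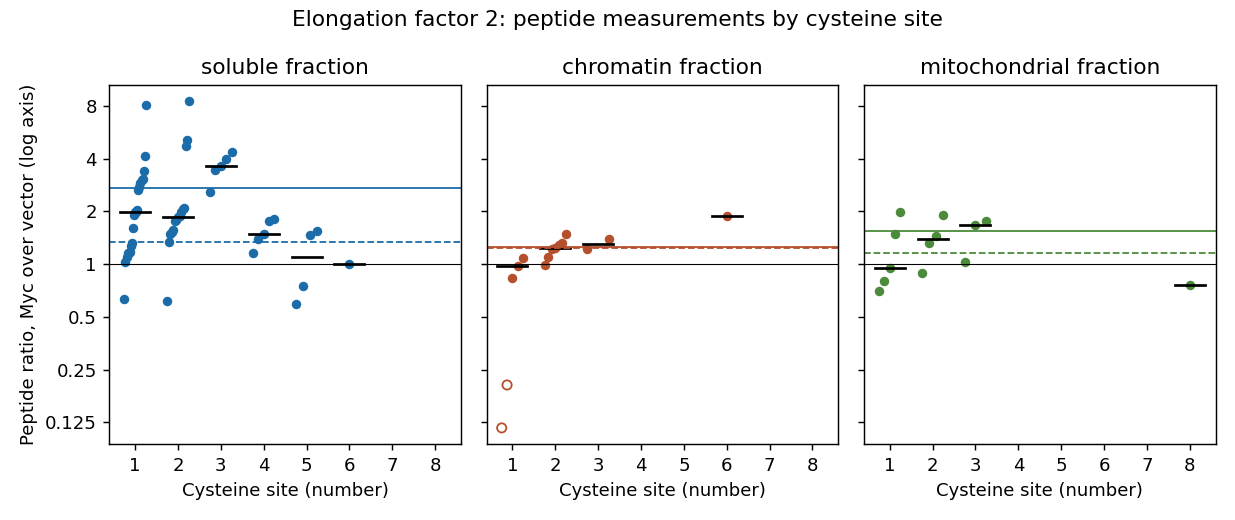
Peptide ratios of elongation factor 2, Myc over vector (log axis), by cysteine site in the 3 fractions; points are distinct measurements, open circles carry a question mark, short black bars are site medians, solid lines the protein ratio and dashed lines the fraction median. Soluble measurements reach 8.51, and chromatin and mitochondrial ones without a question mark stay below 2.

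The deposited soluble protein ratio of EF2 was 1.49 times the median of its measurements. Of 140 soluble entries with at least 5 measurements 7, EF2 included, had as high a quotient, and the median quotient was 1.02. The mean of log ratios weighted by the deposited errors was 2.73 as a ratio, close to the deposited value. For chromatin and mitochondrial EF2 the quotients were 1.02 and 1.16. Site 7 had only lines with a code for a labelled form that was not detected.

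EF2 could be compared between fractions. The soluble ratio was 2.17-fold the chromatin ratio and 2.87 combined errors away, which counts as different. Of 86 pairs of entries joined by name between these fractions 22.1% differed by this rule, 14% with the higher ratio in the soluble fraction. A name with more than 1 entry in a fraction gives more than 1 pair. On peptides of the same sequence in both fractions, 4 of 5 were higher in the soluble fraction, with quotients from 0.535 to 2.79 and a median of 1.61. On the medians of the measurements the quotient was 1.48 (1.47 combined errors), which ends the call, and without site 3 it was 1.43. The soluble ratio was 1.76-fold the mitochondrial ratio at 1.90 combined errors, which does not pass, where 16.8% of 113 such pairs did. On peptides of the same sequence in these fractions, 4 of 5 were again higher in the soluble one. Their quotients ran from 0.956 to 2.13, with a median of 1.61. Chromatin over mitochondrial was 0.813 at 1.16 combined errors, where 9.62% of 52 such pairs passed. Of the shared sequences 0 of 4 were higher in the chromatin fraction.

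EF1B is the nucleotide exchange subunit that reloads eEF1A (rat gene Eef1b2). It was found in the soluble fraction only, under 1 human and 1 mouse entry that rest on different peptides of 32 and 24 residues. The mouse entry had a ratio of 1.33 ± 0.044 and the human entry 0.874 ± 1.06, each from 1 measurement. The error of the human entry, 121% of its ratio, covers no difference as well as the value of the mouse entry. The mouse ratio was 0.986 times the fraction median, and neither entry passed the rule.

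IF5A (rat gene Eif5a), known as the main protein that carries hypusine, had 33 lines in the soluble fraction and 5 in the mitochondrial one. Its soluble ratio was 2.43 ± 0.262 (6 peptides), rank 66 of 542, and at 1.81 times the fraction median it kept its call. All lines covered 1 cysteine site, in 4 sequences that differ at their ends and in the oxidation of methionine. The 13 soluble measurements without a question mark ran from 1.34 to 3.80 with a median of 2.60. All 13 were above 1 and 12 were above the fraction median. They spanned 2.84-fold from lowest to highest. The 51 of EF2 spanned 14.4-fold, but over 6 sites. A span widens with the number of measurements, so these 2 spans do not rank the factors.

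A second set of soluble IF5A measurements carried a question mark. These 9, all of the 18-residue peptide with oxidised methionine, ran from 0.485 to 4.24 (median 1.72), and 3 of them were below 1. With them the median over 22 measurements was 2.36. The legend does not explain the mark. In 22 of 23 entries where it matters, the deposited number of peptides equals the number of unmarked forms, so marked lines appear to have been left out of protein ratios.

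In the mitochondrial fraction the ratio of IF5A was 1.30 ± 1.33 (2 peptides), and it did not pass. Its 3 measurements were 1.08 ± 0.287, 1.22 ± 0.548 and 19.3 ± 20.7. The last has an error larger than itself, and it and the second are of the same oxidised form. The soluble ratio was 1.87-fold the mitochondrial one but only 0.605 combined errors away, which does not count as different.

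IF2G, the subunit of eIF2 that binds GTP and the initiator tRNA (rat gene Eif2s3), rose in the soluble fraction to 1.74 ± 0.300 (1 peptide) and fell in the chromatin fraction to 0.617 ± 0.086 (1 peptide). The 7 soluble measurements were 1.21, 1.23, 1.59, 1.77, 2.38, 2.39 and 2.52, all above 1. The 2 chromatin measurements were 0.483 ± 0.008 and 0.647 ± 0.154, both below 1. The 2 sets of ratios did not overlap, but the lowest soluble ones, 1.21 ± 1.15 and 1.23 ± 0.426, carry wide errors. How often the measurements of other entries do not overlap between these fractions was not computed.

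The soluble and chromatin ratios of IF2G were 2.82-fold and 4.69 combined errors apart, and 2.61-fold apart relative to the fraction medians. They rest on different peptides, of 25 residues in the soluble and 18 residues in the chromatin fraction, with 0 sequences in common. Fraction and peptide therefore cannot be told apart for IF2G. Relative to the fraction medians the soluble ratio was 1.30, which does not pass, and the chromatin ratio was 0.497, which does. Of the 8 soluble lines 2 had an identification probability under 0.9, the lowest being 0.558.

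**Figure D4:**
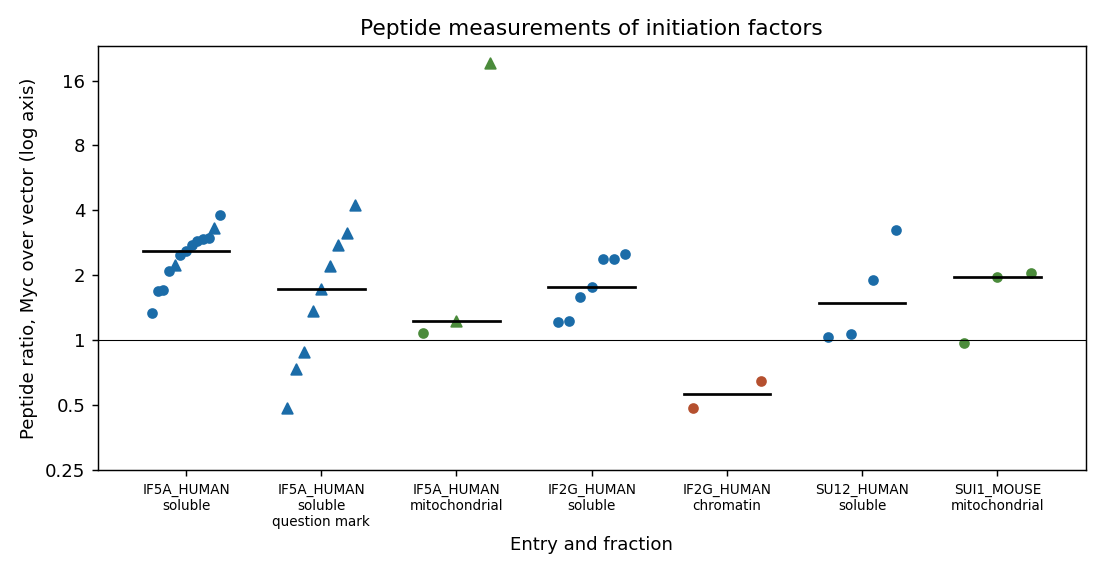
Peptide ratios of IF5A_HUMAN, IF2G_HUMAN, SU12_HUMAN and SUI1_MOUSE, Myc over vector (log axis); each point is 1 measurement, triangles are peptides with oxidised methionine and black bars are medians. Soluble IF2G_HUMAN lies between 1.21 and 2.52 and chromatin IF2G_HUMAN at 0.483 and 0.647, while the question-marked IF5A_HUMAN measurements lie on both sides of 1.

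IF38 (rat gene Eif3c), a core subunit of eIF3, fell in the soluble fraction to 0.395 ± 0.051, rank 530 of 542. No other of the 6 soluble entries fell. The value comes from 2 lines of 1 measurement of a 10-residue peptide, with a probability of 1.00 for the better line. At 0.294 times the fraction median the call held. IF38 had 0 lines in the other fractions. The soluble entries IF34 and IF37, read as other eIF3 subunits, had ratios of 1.13 ± 0.194 (2 peptides) and 2.03 ± 1.20. The entries IF32 and IF3B, given by name only, had 1.54 ± 3.55 and 1.16 ± 0.995. None of these 4 passed.

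SUI1, the start codon factor eIF1 (rat gene Eif1), had an entry of that name in the mitochondrial fraction only. It rose there to 1.97 ± 0.492 (2 peptides), rank 17 of 201. Its 3 measurements were 0.973, 1.96 and 2.05, so 1 of them showed no increase. At 1.71 times the fraction median the call held. The soluble entry SU12_HUMAN rests on 2 sequences that are identical to the 2 sequences of SUI1_MOUSE, so these peptides cannot tell the 2 entries apart. The ratio of SU12_HUMAN was 1.28 ± 0.468, which does not pass. Its 4 measurements were 1.03, 1.07, 1.90 and 3.23. The protein ratio of SU12_HUMAN was 0.647 times that of SUI1_MOUSE, at 0.980 combined errors, which does not count as different. By sequence, 1 of the 2 shared peptides was higher in the soluble fraction, with soluble over mitochondrial quotients of 0.732 and 2.21.

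The other translation factors were read through a list of 54 further entry names of initiation, elongation and release factors and of the poly(A)-binding proteins PAB1 and PAB4. Of these, 8 soluble entries were quantified, of which 2 rose and 0 fell by the rule. The 2 were EF11 (eEF1A, the carrier of aminoacyl-tRNA), at 1.67 ± 0.399 over 8 peptides and 82 lines, and PAB1 (poly(A)-binding protein), at 1.75 ± 0.287 on 1 line. The highest value was 2.438 ± 1.246 (GSP1_MOUSE) and the lowest 1.13 ± 0.194 (IF34_HUMAN). All 8 were thus above 1, and 5 of the 8 were above the fraction median. By the rule 30.6% of all soluble entries rose and 8.12% fell. Relative to the fraction median 0 of 8 passed, against 29.9% of all soluble entries. The median of the 8 was 1.60, against 1.53 for the 6 entries and 1.34 for all soluble entries. The list did not name PAB3_HUMAN, added here after its values were seen, which rose to 1.79 ± 0.230 in the soluble fraction and was 1.14 ± 0.194 in the chromatin fraction, where it did not pass. With it 3 of 9 soluble entries rose, 0 of 9 passed relative to the fraction median, and the median was 1.67.

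The partners of EF2 and EF1B in elongation were measured outside the soluble fraction too. In the chromatin fraction EF1D, a further subunit of the exchange complex, rose to 1.57 ± 0.134 on 1 peptide and did not pass relative to the fraction median (1.27 times it), while EF11 (1.40 ± 0.264) and EF1G (1.20 ± 0.405) did not pass. In the mitochondrial fraction EF11 was 1.09 ± 0.306, EF1G 1.16 ± 0.097 and IF34 2.57 ± 4.14. Of these 0 of 3 passed, against 18.4% of all entries in that fraction. EF2 and EF11, both with many lines in every fraction, thus had soluble ratios of 2.71 and 1.67 and mitochondrial ratios of 1.54 and 1.09. Their chromatin ratios were 25% and 40.4% above 1.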

How the data were processed

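The authors' tables hold 1 line per identified peptide with its probability, protein annotation and linear abundance ratio of Myc over vector; protein ratios, SD and numbers of peptides stand in a text cell. Per the labels, spectra were searched against a rat, mouse and human database, identifications were scored with PeptideProphet and ProteinProphet, and ratios were made with ASAPRatio. Tool versions and any centring are not given in the sources used here. The authors' legend sets a probability limit of 0.5, and the lowest deposited probability was 0.502. Ratios of 0, 9999 and -1 are codes and were taken as not measured. The tables came as text sheets.

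Entries were grouped by the name without its species suffix. Rat peptides stand under human or mouse entries, so the suffix is not the species of the cells. Gene symbols were read from entry names by general knowledge, and 12 of 12 looked up were found in the RefSeq rat gene table of assembly GRCr8. Repeat lines of the same form whose ratios lay within 0.0021 were merged as 1 measurement. The call rules are those given with the results, applied to every quantified entry. They were also run on simulated entries whose noise matched their stated errors, which cannot show how they fare on the deposited errors. No test across samples was run, and errors of 2 ratios were combined as the root of summed squares. Every entry of the 6 names was described. Of the 54 other names, those quantified were counted with the highest and lowest named, and the elongation and eIF3 entries were named after their values were seen. The members and lists were chosen with earlier results of these data known. No peptide sequence is printed. Python 3.11.15, numpy 2.4.6, pandas 2.3.3 and matplotlib 3.10.9 were used.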

Additional observations from a re-analysis of the deposited data

Results flagged for a closer look

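IF2G had opposite directions in 2 fractions: all 7 soluble measurements were above 1 and both chromatin measurements below 1, with protein ratios of 1.743 and 0.617. By the rule of 1.5-fold and 2 combined errors these ratios differed (2.82-fold, 4.69 combined errors). Of 86 pairs of entries joined by name, 14% differed with the higher ratio in the soluble fraction. Relative to the fraction medians the soluble ratio of IF2G was 1.30, which does not pass, and the chromatin ratio was 0.497, which does. How often measurements of other entries lie on opposite sides of 1 was not computed. The 2 ratios of IF2G come from different peptides and from 1 mixture each, so the difference was not tested across samples.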

How the results depend on the processing

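Calls were repeated at a lower fold and at a fold of 2, at 1 and 3 errors, relative to the fraction medians, with at least 2 peptides and with a probability of at least 0.9. In the soluble fraction the 4 calls became 5 at the lower fold, with EF1B_MOUSE added, 3 at a fold of 2, without IF2G, 3 relative to the fraction median, and 2 of 2 entries with at least 2 peptides, EF2 and IF5A, and the median log2 ratio of 0.60 became 0.18 relative to the fraction median and 1.36 with at least 2 peptides. In the chromatin fraction the 1 call became 2 at the lower fold, with EF2 added, 0 at a fold of 2 and 0 with at least 2 peptides. The chromatin median log2 ratio of -0.19 became -0.50 relative to the fraction median and 0.32 with at least 2 peptides, where it is EF2 alone. In the mitochondrial fraction the 2 calls became 0 at a fold of 2, 0 at more than 3 errors and 1 relative to the fraction median. Shares of all entries passing at the other folds and numbers of errors were not computed. These gains and losses of calls therefore cannot be read as particular to the factors. Of 5 comparisons of a factor between fractions (EF2 in 3, IF5A and IF2G in 1 each) 2 differed, both of soluble against chromatin. Of all pairs of entries joined by name between those fractions 22.1% did. The shares were 16.8% for soluble against mitochondrial and 9.62% for chromatin against mitochondrial. On the medians of measurements, for which no share of all pairs was computed, 1 of the 5 differed. That alternative was chosen after seeing the data, as were the median without EF2 site 3 and the medians with marked lines. The chromatin ratio of IF2G was 0.483 as an error-weighted mean. The cause of these shifts was not tested, apart from the entries that a minimum of 2 peptides leaves out. No paired analysis was possible because each fraction was 1 mixture. EF1B and IF38 rest on single measurements.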
